A study of Mus musculus with 12 samples.

Results

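The heart builds muscle versions of many proteins by alternative splicing, and 10 genes for RNA-binding splicing regulators of muscle were followed here: Rbm20, Rbm24, Rbfox1, Rbfox2, Celf1, Celf2, Mbnl1, Mbnl2, Rbpms and Rbpms2. They were taken by symbol, and all 10 were listed for both experiments, among 15471 genes common to them. The list was drawn up with results of these data known, and Rbpms2 was chosen by its measured FPKM, which had been seen to move in opposite directions in the 2 mutants. Its values in the mutants are therefore given as a description, without p-values. The fits and counts over all genes include it. The study sequenced total RNA of mouse hearts, with 12 libraries that form 4 groups of 3. Hearts without HDAC3 (KO, labelled HDAC3 KO) were set against wild-type hearts of the same experiment (WT of KO), and NS-DADm hearts, whose HDAC3 is labelled inactive, against their own wild-type hearts (WT of NS-DADm). HDAC3 is a histone deacetylase and acts as part of corepressor complexes, whose deacetylase-activating domains switch its enzyme on. NS-DADm mice carry mutations in such domains. The labels give no age, sex, strain, Cre driver or time of deletion. They call the replicates biological but do not name the animals behind them. The p-values measure the spread between libraries, part of which may be technical.

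Splicing regulators of this kind bind short motifs in introns and in the ends of messenger RNAs, and the place of the bound motif decides whether an exon is kept or skipped. RBM20 represses exons of titin and other sarcomere and calcium-handling genes, and its mutations cause dilated cardiomyopathy in people. RBFOX1, RBFOX2 and RBM24 promote many muscle exons, while the CELF and MBNL families act against each other on a shared set of exons that switch as the heart matures. RBPMS directs the splicing programme of mature smooth muscle, and its close relative RBPMS2 is needed in heart muscle cells of zebrafish. The data hold 1 level per gene and library, so they report how much RNA of each regulator there was, and nothing on its isoforms, its protein or the splicing of its targets.

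Levels are in FPKM, fragments per kilobase of gene length and per M fragments, which allows genes to be compared within an experiment. Low FPKM values rise in steps of whole fragments, and from these steps the libraries were estimated to hold 8.5 to 12.9 M fragments (M, mega) in the listed genes. Hdac3 itself was measured at 8.51, 7.31 and 7.88 FPKM in KO hearts, against 27.83, 29.45 and 27.12 FPKM in WT of KO hearts, so its RNA was lower in every KO library without being absent. In NS-DADm hearts it was at 30.57, 28.98 and 29.98 FPKM, against 32.05, 29.02 and 28.21 FPKM in their WT. Hdac3 RNA cannot check the NS-DADm genotype, whose mutations lie in the corepressors. Ddx3y, a Y-linked gene, was at 21.43 to 22.13 FPKM in KO hearts and at 0 in WT of KO hearts, and Eif2s3y, also Y-linked, at 45.8 to 48.46 FPKM against 0.11 FPKM. KO genotype and sex therefore cannot be told apart in these libraries. In the other experiment Ddx3y lay at 0 to 0.06 FPKM in both groups, and Xist, which is transcribed from the inactive X chromosome, at 15.11 to 16.19 FPKM in NS-DADm and 17.03 to 20.56 FPKM in WT hearts. The 16 cardiomyocyte markers summed to 68611.5 to 69727.0 FPKM in KO and 95933.9 to 100376.4 FPKM in WT of KO hearts, and every one was detected in both experiments.

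Some NS-DADm experiment libraries also held much more atrial RNA than others. The summed level of Myl7, Myl4, Sln, Bmp10 and Mybphl, genes of atrial heart muscle, was 1457, 207.4 and 2413 FPKM in NS-DADm replicates 1 to 3, against 131.2, 26.13 and 1991 FPKM in WT replicates 1 to 3. NS-DADm replicates 1 and 3 and WT replicate 3 stood high. Rbm24, Mbnl2, Rbpms2 and the number of genes called in that experiment are also given split by or without these 3 libraries. The test of the difference of the effects was not rerun without them. In the KO experiment, the 12 macrophage markers summed to 1872.5 to 1914.8 FPKM in KO hearts and 310.6 to 339.4 FPKM in WT hearts, and all 12 were called higher. In bulk hearts a change in the number of cells of a type cannot be told apart from a change in RNA per cell.

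In wild-type hearts every one of the 10 regulators was expressed, from about 8 FPKM to above 120 FPKM. Rbpms was the most abundant, at 129 ± 1.27 FPKM in WT of KO and 131 ± 7.18 FPKM in WT of NS-DADm hearts (SD, n = 3 each). Celf2 was the least abundant, at 8.46 ± 0.636 FPKM in WT of KO and 12.9 ± 0.41 FPKM in WT of NS-DADm hearts. Between them in WT of KO hearts came Rbm24 (64.3 ± 2.35 FPKM), Mbnl2 (64.1 ± 2.55), Mbnl1 (42.9 ± 1.8), Rbm20 (36.1 ± 0.306), Celf1 (23.2 ± 0.72), Rbpms2 (18 ± 0.49), Rbfox1 (17 ± 1.33) and Rbfox2 (15 ± 0.841). Rbm24 and Mbnl2 overlapped between libraries, as did Rbpms2 and Rbfox1, so those neighbours are not ordered. In WT of NS-DADm hearts Rbm24 (90.8 ± 11 FPKM) was above Mbnl2 (74.7 ± 6.86 FPKM), Rbm20 (48.4 ± 2.67 FPKM) above Mbnl1 (40.4 ± 0.442 FPKM), and Rbpms2 stood sixth at 31.2 ± 0.392 FPKM. The neighbours Rbfox2 and Rbfox1 overlapped there, at 19.5 ± 1.11 and 18.1 ± 0.873 FPKM. Among 6 of the 7 close relatives (Rbfox3, Celf3, Celf4, Celf5, Celf6 and Mbnl3) no library reached 1 FPKM. The seventh, Rbm38, a relative of Rbm24, averaged 97.2 ± 5.53 FPKM in WT of KO and 125 ± 12.2 FPKM in WT of NS-DADm hearts.

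**Figure D1:**
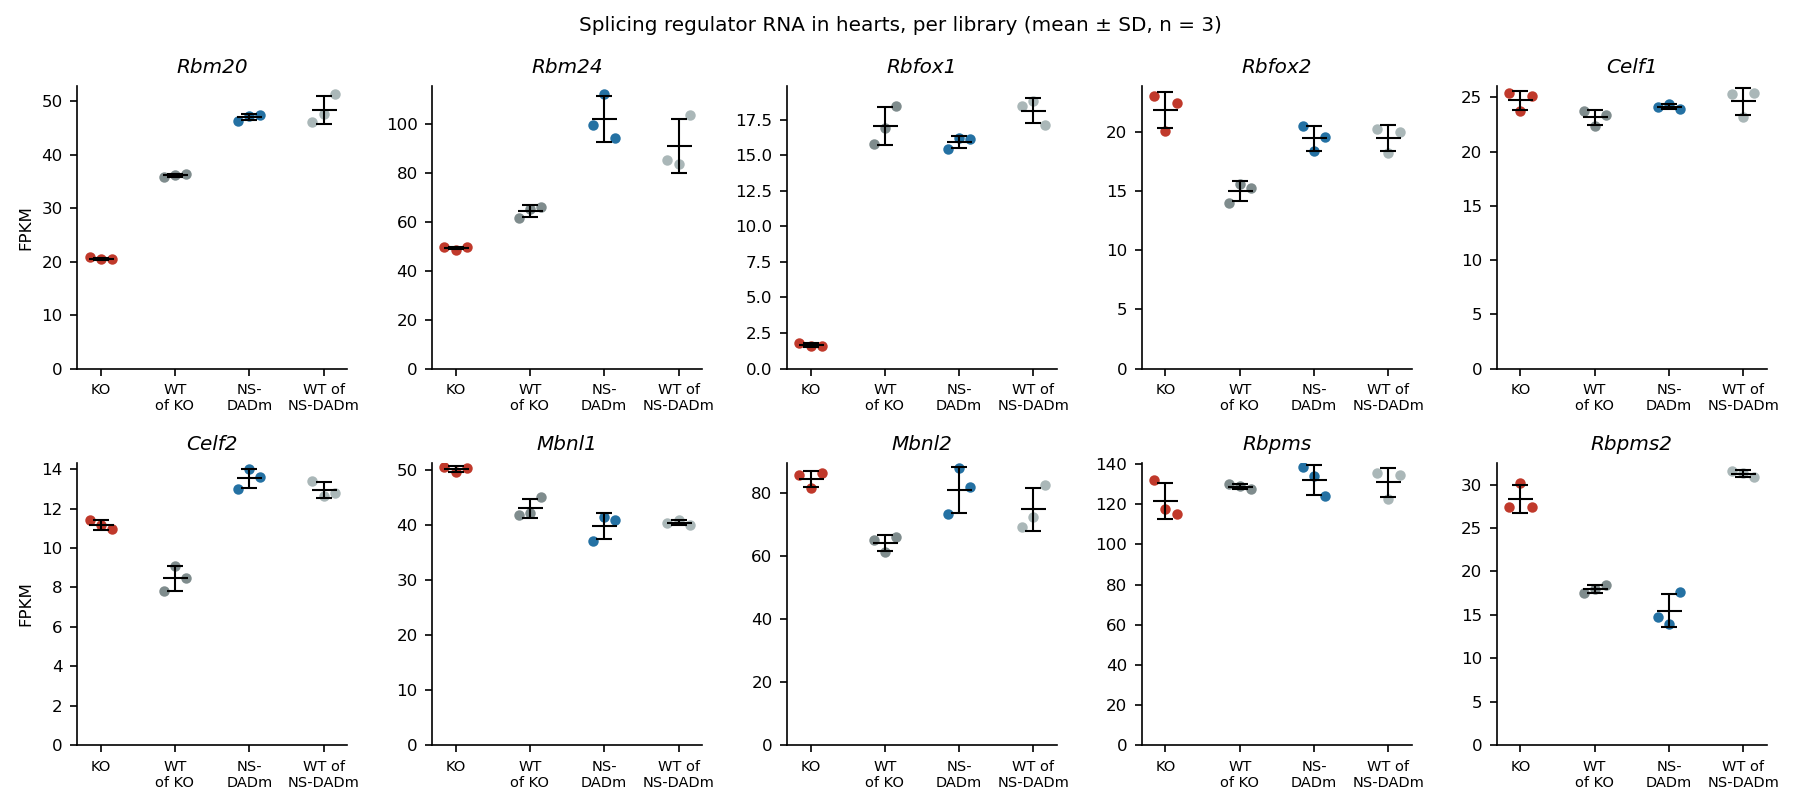
FPKM of the 10 regulators (vertical axes, each starting at 0) in the 4 groups of 3 libraries; points are libraries and bars the mean ± SD. Rbfox1 lies at 1.56 to 1.78 FPKM in KO hearts and above 15 FPKM in the other 3 groups, while Rbpms2 is at 27.39 to 30.23 FPKM in KO hearts and 13.99 to 17.6 FPKM in NS-DADm hearts.

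Loss of HDAC3 came with lower RNA of 3 of these regulators and higher RNA of 4. Of the 9 regulators other than Rbpms2, 7 were called in KO hearts at an adjusted p under 0.05 (limma on log2(FPKM + 1), Benjamini-Hochberg over all genes), against 65.8% of all 11810 genes tested. By direction 4 were called higher and 3 lower, where 38.2% of all genes were higher and 27.6% lower. Such a share is near that of genes at large, so the count says little by itself, and the sizes and directions below carry the description. The median log2 fold change of the 9 was 0.09, and that of all genes 0.06.

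Rbfox1 was by far the most reduced of them. It had 1.78, 1.56 and 1.56 FPKM in KO hearts, against 15.78, 16.89 and 18.42 FPKM in WT of KO hearts. No KO library came near a WT library, and the means of 1.63 ± 0.127 and 17 ± 1.33 FPKM (SD, n = 3 each) differ 10.4-fold. The limma log2 fold change was -2.77 (SE 0.0747, adjusted p = 2.54e-10), and -3.3 with a pseudocount of 0.1, since adding 1 to every FPKM shrinks the change of a gene this low. The authors' deposited table gave a signed fold of -11.2 for it.

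Rbm20, the titin regulator, and Rbm24, which supports sarcomere gene splicing and mRNA stability, were also lower in KO hearts. Rbm20 was at 20.78, 20.44 and 20.44 FPKM in KO hearts and at 35.81, 36.21 and 36.41 FPKM in WT hearts. These groups are narrow and far apart, and the log2 fold change was -0.79 (SE 0.0409, adjusted p = 3.57e-08). Rbm24 was at 49.57, 48.59 and 49.47 FPKM in KO hearts, against 61.6, 65.33 and 65.94 FPKM in WT hearts, a log2 fold change of -0.38 (adjusted p = 9.68e-06). Its relative Rbm38 averaged 90 ± 2.01 FPKM in KO and 97.2 ± 5.53 FPKM in WT hearts, with non-overlapping libraries but an adjusted p of 0.0536. Rbm38 was called lower with each library centred on its median gene (adjusted p = 0.00292) or quantile normalised (0.00105).

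Rbfox2, Celf2, Mbnl1 and Mbnl2 were higher in KO hearts. Rbfox2, which binds the same motif as Rbfox1, was at 23.06, 20.13 and 22.5 FPKM in KO hearts and at 14.05, 15.64 and 15.32 FPKM in WT hearts. All KO libraries lay above all WT libraries, and the log2 fold change was 0.52 (SE 0.0639, adjusted p = 3.57e-05). Mbnl2 was at 85.64, 81.54 and 86.17 FPKM in KO hearts, against 65.02, 61.21 and 66.04 FPKM in WT hearts, a 1.32-fold higher mean (log2 fold change 0.39, adjusted p = 1.06e-05). Mbnl1 was at 50.52, 49.52 and 50.22 FPKM in KO and 41.7, 42.11 and 45.01 FPKM in WT hearts, a log2 fold change of 0.22 (adjusted p = 0.000898). Both muscleblind genes, whose proteins promote adult splice forms, thus rose without overlap between the groups. Celf2 was at 11.43, 11.15 and 10.95 FPKM in KO hearts and 7.81, 9.08 and 8.49 FPKM in WT hearts, a log2 fold change of 0.37 (SE 0.064, adjusted p = 0.00047).

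Celf1 and Rbpms did not pass the test in KO hearts. Celf1, the CELF protein that is raised in myotonic dystrophy, was at 25.38, 23.75 and 25.14 FPKM in KO and 23.77, 22.37 and 23.36 FPKM in WT hearts. Its groups overlapped, and the log2 fold change of 0.09 had an adjusted p of 0.116. Rbpms was at 132.16, 117.88 and 115.22 FPKM in KO hearts, against 129.95, 128.92 and 127.42 FPKM in WT hearts. KO replicate 1 lay above the WT libraries and the other 2 below them, and the log2 fold change was -0.08 (adjusted p = 0.16). Without KO replicate 1 it was -0.14 (adjusted p = 0.0085) and with each library centred on its median gene it was -0.17 (adjusted p = 0.0125). Rescaled so that each library summed to 1000000, however, Rbpms averaged 200.03 ± 15.8 in KO and 199.3 ± 0.465 in WT hearts, so its direction flips with the scaling. The authors' deposited table gave it a signed fold of -1.16 with a q-value of 0.000142.

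The KO changes came beside shifts of other cell markers. The 12 fibroblast markers summed to 2565.2 to 2573.0 FPKM in KO hearts and 1616.5 to 1660.2 FPKM in WT hearts, and the 12 endothelial markers to 1741.4 to 1768.8 FPKM against 2379.4 to 2611.1 FPKM. Of the 16 cardiomyocyte markers 3 were called higher and 11 lower. The atrial cardiomyocyte markers summed to 2502.1 to 2550.6 FPKM in KO hearts and 456.9 to 469.9 FPKM in WT hearts, with 6 of 12 tested called higher and 5 lower. Most of the KO sum was Nppa, the atrial natriuretic peptide, at 1812.7 to 1876.6 FPKM in KO hearts and 112.1 to 119.7 FPKM in WT hearts. Without Nppa the atrial list summed to 674.0 to 689.5 FPKM in KO and 344.3 to 350.2 FPKM in WT hearts. Within it, Myl7, Myl4, Sln, Bmp10 and Mybphl summed to 124.4 to 132.2 FPKM in KO and 19.6 to 20.3 FPKM in WT hearts. The 6 erythroid markers summed to 2693.2 to 2829.9 FPKM in KO hearts and 7976.4 to 9302.4 FPKM in WT hearts, with 5 of 5 tested called lower. Bmp10, an atrial marker, was listed at 0 in WT hearts, no other marker of these lists was at 0, and the part of cell makeup in the changes of the splicing regulators was not tested. Centring each library on its median gene shifted the median log2 fold change of all genes between KO and WT from 0.06 to -0.03 and turned the split of calls from 4515 higher and 3260 lower to 3640 higher and 4150 lower. The 3 lower and 4 higher calls among the regulators kept their direction and their call under that setting.

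In NS-DADm hearts none of the 9 regulators other than Rbpms2 was called, where 2.69% of all 11705 genes tested were (limma, the same threshold), 1.26% higher and 1.43% lower. At an unadjusted p under 0.05 it was 1 of the 9, Rbfox1, where 2153 of all 11705 genes tested passed. Such a count says little by itself. Rbfox1 was at 15.46, 16.19 and 16.12 FPKM in NS-DADm hearts, against 18.44, 18.77 and 17.12 FPKM in WT hearts. The groups did not overlap, but the log2 fold change was only -0.17 (SE 0.0656) and the adjusted p 0.194, with 0.15 to 0.448 under the other settings. Rbm20 was at 46.4, 47.26 and 47.52 FPKM in NS-DADm hearts and 46.14, 47.65 and 51.33 FPKM in WT hearts, a log2 fold change of -0.04 with an SE of 0.0604. A fall of the size seen in KO hearts lies far outside that error. Rbfox2, at 20.51, 18.4 and 19.6 FPKM against 20.26, 18.24 and 20.03 FPKM in WT hearts, had equal means to within 0.1%.

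Rbm24 and Mbnl2 varied most between libraries of the NS-DADm experiment. Rbm24 was at 99.37, 112.22 and 94.14 FPKM in NS-DADm hearts and at 85.35, 83.71 and 103.46 FPKM in WT hearts. Mbnl2 was at 73.24, 87.64 and 81.92 FPKM in NS-DADm hearts and at 69.23, 72.39 and 82.37 FPKM in WT hearts. In both genes WT replicate 3, which is high in atrial markers, lay within the NS-DADm range, and the other 2 WT libraries lay below it. Between the libraries low in atrial markers, 1 NS-DADm against 2 WT libraries, Rbm24 was at 112 against 84.5 FPKM and Mbnl2 at 87.6 against 70.8 FPKM. Between those high in them, 2 NS-DADm libraries against 1 WT library, the order turned, with Rbm24 at 96.8 against 103 FPKM and Mbnl2 at 77.6 against 82.4 FPKM. Neither was called in the full comparison (adjusted p = 0.389 for Rbm24 and 0.519 for Mbnl2, limma), nor without the 3 libraries. Celf1, Celf2, Mbnl1 and Rbpms differed in mean by less than 5% between NS-DADm and WT hearts. Rbm38, the relative of Rbm24, was at 141.93, 160.75 and 152.06 FPKM in NS-DADm hearts and 113.62, 124.13 and 137.93 FPKM in WT hearts. These groups did not overlap, and the adjusted p was 0.112. The 12 macrophage markers summed to 375.4 to 432.5 FPKM in NS-DADm hearts, against 289.0 to 324.8 FPKM in WT hearts. Of the 11 tested, 5 were called higher, 0 lower and 6 not, which makes 45.5% called against 2.69% of all genes.

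**Figure D2:**
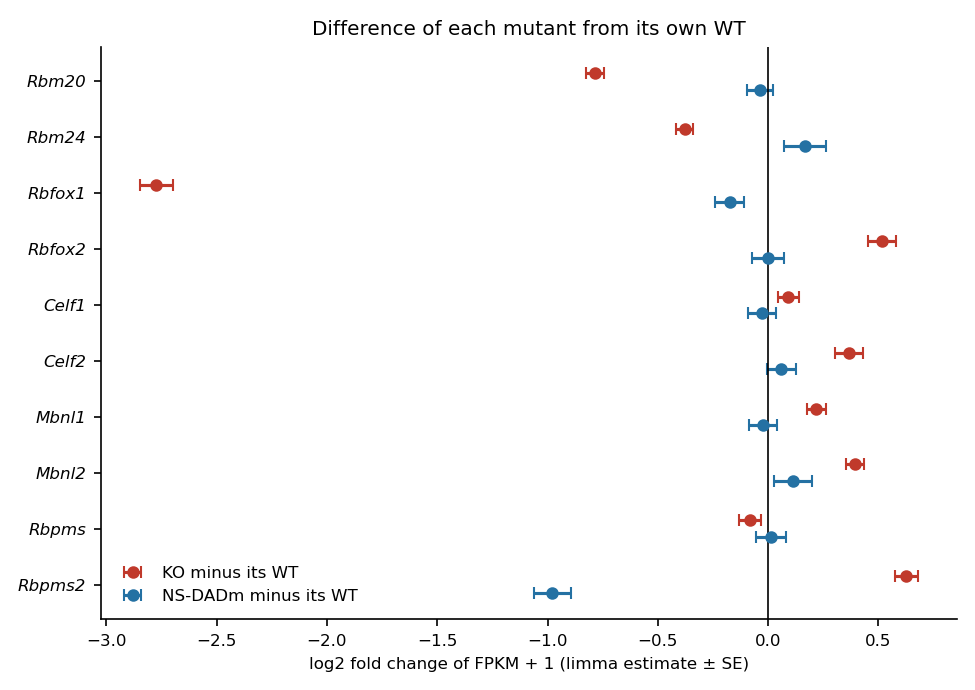
Limma log2 fold change of FPKM + 1 ± SE (horizontal axis) of each regulator in KO hearts minus their WT (red) and NS-DADm hearts minus their WT (blue). Rbfox1 stands at -2.77 in KO and -0.17 in NS-DADm hearts, and Rbpms2, given without a p-value, at 0.63 in KO and -0.98 in NS-DADm hearts.

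The KO and NS-DADm effects differed for 7 of the 9 regulators in a direct test of the difference (limma over all 12 libraries), where 45.9% of 11662 genes tested did. In 4 of them the KO effect was the higher one and in 3 the lower one, against 28.2% and 17.7% of all genes. Rbfox1 had a difference of -2.6 on the log2 scale (SE 0.0963, adjusted p = 2.09e-10), and Rbm20 one of -0.75 (SE 0.0663, adjusted p = 7.41e-07). For both, the loss of RNA in KO hearts was larger than any change in NS-DADm hearts. Rbm24 had a difference of -0.55 (adjusted p = 0.000966) and Rbfox2 one of 0.52 (adjusted p = 0.000573). The remaining 3 were smaller and rested on the settings. Celf2 (0.31, adjusted p = 0.0107), Mbnl1 (0.24, adjusted p = 0.013) and Mbnl2 (0.28, adjusted p = 0.0355) had adjusted p-values of 0.0784, 0.153 and 0.183 after median centring, which moved the median difference of all genes from 0.08 to -0.02. For Mbnl2 the call was also lost without WT of KO replicate 1 or 2, KO replicate 1 or 3, WT of NS-DADm replicate 3 or NS-DADm replicate 1 (adjusted p = 0.0529 to 0.0851). The differences for Celf1 (0.12, SE 0.0735) and Rbpms (-0.1, SE 0.085) did not pass the test.

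Rbpms2 was the one regulator whose RNA was higher in KO hearts and lower in NS-DADm hearts with separate groups in both experiments. It had 27.45, 30.23 and 27.39 FPKM in KO hearts, against 17.5, 18 and 18.48 FPKM in WT of KO hearts. In the other experiment it had 14.74, 13.99 and 17.6 FPKM in NS-DADm hearts, against 31.61, 31.29 and 30.83 FPKM in WT of NS-DADm hearts. Neither pair of groups overlapped, and the mean was 1.58-fold higher in KO hearts and 2.02-fold lower in NS-DADm hearts than in their own WT. As background, 260 of 10889 genes tested in both experiments were called in both, 16 of them higher in KO and lower in NS-DADm hearts and 19 the reverse. The authors' deposited table gave signed folds of 1.47 for KO and -1.97 for NS-DADm hearts.

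The 2 wild-type groups did not start from the same Rbpms2 level. It was 31.2 ± 0.392 FPKM in WT of NS-DADm hearts and 18 ± 0.49 FPKM in WT of KO hearts, a 1.74-fold gap that is larger than the KO effect. In FPKM, KO hearts, at 28.4 ± 1.62, therefore stood close to the WT of the other experiment, and NS-DADm hearts, at 15.4 ± 1.91, close to WT of KO. Rescaled to the same library sum, Rbpms2 averaged 46.57 ± 2.37 in KO and 57.03 ± 0.862 in WT of NS-DADm hearts. On that scale it averaged 28.64 ± 3.76 in NS-DADm and 27.85 ± 0.994 in WT of KO hearts. The gap and the ratios between the WT groups given here are in FPKM and move with the scaling. The tables were normalised separately, and the ratio of WT levels was 0.969 for the median of 10759 genes of at least 1 FPKM in both. Of these genes 98.6% had a lower ratio than Rbpms2. Celf2 (1.53-fold), Rbm24 (1.41-fold), Rbm20 (1.34-fold), Rbfox2 (1.3-fold) and Mbnl2 (1.16-fold) were also higher in WT of NS-DADm hearts, without overlap between libraries. Of all these genes, 97.0% had a lower ratio than Celf2 and 81.2% a lower ratio than Mbnl2, with the others named here in between. How many of all genes lacked overlap was not counted, so the lack of overlap says little by itself. In FPKM, Mbnl1 was lower in WT of NS-DADm hearts (0.94-fold), also without overlap, and 44.4% of these genes had a lower ratio. Rescaled to the same library sum, Mbnl1 averaged 73.69 ± 1.62 in WT of NS-DADm and 66.47 ± 3.39 in WT of KO hearts. Its direction between the WT groups thus flips with the scaling. Rbfox1, Celf1 and Rbpms overlapped in FPKM between the WT groups.

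Dividing Rbpms2 by Rbpms in the same library removes the scaling of the tables. The ratio was 0.208, 0.256 and 0.238 in KO hearts, against 0.135, 0.14 and 0.145 in WT of KO hearts. It was 0.107, 0.105 and 0.142 in NS-DADm hearts, against 0.233, 0.255 and 0.229 in WT of NS-DADm hearts. The 4 groups thus fell on the same 2 levels as the FPKM values, with KO and WT of NS-DADm high and the other groups low. Because Rbpms is so abundant, the sum of the 2 genes moved little, at 150 ± 8.68 FPKM in KO and 147 ± 0.788 FPKM in WT of KO hearts, and 148 ± 5.81 FPKM in NS-DADm and 162 ± 7.18 FPKM in their WT.

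Rbpms2 is given here for the libraries low and high in atrial RNA as a description. Its groups did not overlap in the full comparison, so any split of the libraries must show it lower in NS-DADm hearts. The part of atrial RNA in its level was not tested. Among libraries low in atrial markers Rbpms2 was at 14 FPKM in 1 NS-DADm library and 31.4 FPKM on average in 2 WT libraries, 2.25-fold lower. Among those high in them it was at 16.2 FPKM on average in 2 NS-DADm libraries and 30.8 FPKM in 1 WT library, 1.91-fold lower. The summed smooth muscle and pericyte markers were also set beside it, since RBPMS proteins are abundant in smooth muscle. Without Des, which heart muscle also makes, the 13 other genes summed to 437.7 to 442.3 FPKM in KO and 346.2 to 360.3 FPKM in WT of KO hearts, and to 299.8 to 346.8 FPKM in NS-DADm and 367.2 to 388.5 FPKM in their WT. Acta2, smooth muscle actin, made up much of the KO sum, at 232.6 to 235.3 FPKM in KO and 79.9 to 85.4 FPKM in WT of KO hearts. Without it as well, the other 12 genes summed to 204 to 207 FPKM in KO and 266.3 to 274.9 FPKM in WT of KO hearts, and to 262.5 to 294.9 FPKM in NS-DADm and 319.3 to 333.9 FPKM in their WT. The sum was thus higher in KO hearts with Acta2 and lower without it, and lower in NS-DADm hearts either way. The part of smooth muscle RNA in the Rbpms2 levels was not tested. Myh11, the myosin that defines smooth muscle, was at 3.5 to 3.6 FPKM in KO and 3.7 to 4.4 FPKM in WT of KO hearts, and at 4.9 to 8.8 FPKM in NS-DADm and 4 to 5.8 FPKM in their WT.

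**Figure D3:**
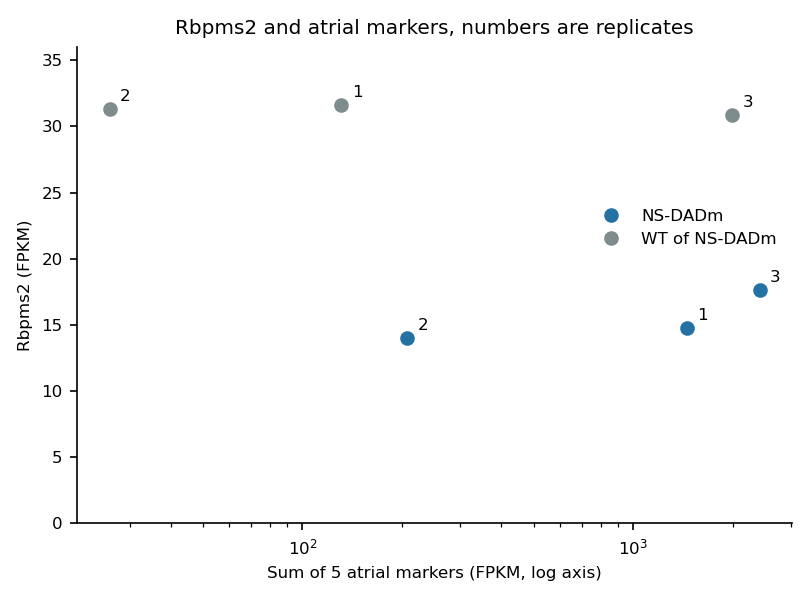
Rbpms2 FPKM (vertical axis) against the summed FPKM of 5 atrial markers (horizontal log axis) in the 6 libraries of the NS-DADm experiment; numbers are replicates. The NS-DADm libraries lie at 13.99 to 17.6 FPKM and the WT libraries at 30.83 to 31.61 FPKM.

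Some other genes had a pattern like that of Rbpms2. Ranked by Pearson r over the 12 libraries of the log2 value minus that of the WT of the same experiment, the closest of 10957 genes were Sdc2 (r = 0.975), Mgat4b (0.972), Rab23 (0.969), Gja1 (0.967) and Chsy1 (0.966). These r are a description, since all the points share the same 2 contrasts. Gja1, the main gap junction protein between ventricular muscle cells, averaged 158 ± 1.98 FPKM in KO and 132 ± 4.29 FPKM in WT of KO hearts, and 88.7 ± 7.11 FPKM in NS-DADm and 125 ± 14 FPKM in their WT. Sdc2, a cell-surface heparan sulfate proteoglycan, averaged 31.6 ± 1.22 FPKM in KO and 27.3 ± 1.16 FPKM in WT of KO hearts, and 20.5 ± 0.435 FPKM in NS-DADm and 26.7 ± 0.829 FPKM in their WT. Their changes were smaller than that of Rbpms2, and their 2 WT groups lay close together where those of Rbpms2 did not.

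The Rbpms2 gene (ENSMUSG00000032387) lies on chromosome 9, 65629648 to 65660528 on the plus strand of GRCm38, with 6 annotated transcripts. Rbfox1 spans chromosome 16, 5885355 to 7411526, and Rbm24 chromosome 13, 46418434 to 46431095, both on the plus strand (GENCODE M21). Sequence before RefSeq starts is shown for Rbpms2, the gene with opposite changes, and for Rbfox1 and Rbm24, which fell in KO hearts, so that the windows can be compared. For Rbpms2 the run ends where the first annotated exon at that start begins. Its window lies inside the GENCODE span given above, as the RefSeq start used is downstream of the GENCODE start. Windows were available for 7 of the 10 genes, 13 in all. The capitals mark GC-boxes (GGGCGG or its reverse complement), the only one of 5 searched motifs found in these 4 windows.
Rbpms2, chr9:65630332-65630558, plus strand, GRCm38.p6: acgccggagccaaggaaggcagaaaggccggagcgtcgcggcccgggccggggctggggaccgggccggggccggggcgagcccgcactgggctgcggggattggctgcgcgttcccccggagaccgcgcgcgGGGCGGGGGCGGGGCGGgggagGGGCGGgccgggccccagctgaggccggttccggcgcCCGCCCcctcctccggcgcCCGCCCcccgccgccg
Rbm24, chr13:46418050-46418299, plus strand, GRCm38.p6: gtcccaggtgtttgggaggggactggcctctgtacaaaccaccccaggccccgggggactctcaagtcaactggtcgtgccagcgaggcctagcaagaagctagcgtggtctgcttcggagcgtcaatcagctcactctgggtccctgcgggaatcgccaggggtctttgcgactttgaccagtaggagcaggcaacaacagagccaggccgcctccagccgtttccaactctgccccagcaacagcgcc
Rbfox1, first start, chr16:5884543-5884792, plus strand, GRCm38.p6: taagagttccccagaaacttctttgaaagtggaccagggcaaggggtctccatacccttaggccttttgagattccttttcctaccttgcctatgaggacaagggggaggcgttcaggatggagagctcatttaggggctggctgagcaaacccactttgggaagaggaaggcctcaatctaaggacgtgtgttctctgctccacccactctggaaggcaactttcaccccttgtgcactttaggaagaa
Rbfox1, second start, chr16:7069585-7069834, plus strand, GRCm38.p6: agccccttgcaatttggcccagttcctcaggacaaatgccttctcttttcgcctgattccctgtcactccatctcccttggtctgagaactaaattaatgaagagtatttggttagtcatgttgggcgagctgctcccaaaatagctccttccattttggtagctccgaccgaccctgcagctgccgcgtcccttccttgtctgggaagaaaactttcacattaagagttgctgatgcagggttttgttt
Over 250 bases, the Rbpms2 window is 84.8% G or C with 41 CpG and 7 GC-box matches, some of which overlap each other. Not all 7 lie in the printed run, which leaves out 23 bases at its end as exon. The Rbm24 window is 62.4% G or C with 12 CpG, and those of Rbfox1 are 51.2% and 48.4% with 2 and 6 CpG. Among all 32841 windows of that length the medians were 52.4% and 6 CpG, and 32.7% held a GC-box. Both strands were also searched for 4 other motifs without a match in these windows. The nuclear receptor site AGGTCA was present in 14.0% of all windows. The letters of the TEAD factor site, CATTCC, were present in 12.6%. For GATA factors the search used AGATAA, present in 10% of the windows. The E-box motif CACGTG was found in 6.0%. A match or its absence in such a window is a description and no evidence on the binding of a factor.

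Relatives that share a motif shifted against each other in KO hearts. The ratio of Rbfox1 to Rbfox2 was 0.0772, 0.0775 and 0.0693 in KO libraries, against 1.12, 1.08 and 1.2 in WT of KO libraries. Rbfox2 was thus the main RBFOX RNA of KO hearts, while the RNAs were about equal in their WT. The rise of Rbfox2 did not make up the loss, as the sum was 23.5 ± 1.64 FPKM in KO and 32 ± 2 FPKM in WT hearts. In the other experiment the ratio averaged 0.819 ± 0.0631 in NS-DADm and 0.931 ± 0.0891 in WT hearts, with overlapping libraries, and the sum 35.4 ± 0.735 and 37.6 ± 0.938 FPKM.

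The ratio of Celf2 to Celf1 was 0.452 ± 0.017 in KO and 0.366 ± 0.0387 in WT hearts, and that of Mbnl2 to Mbnl1 1.69 ± 0.0355 in KO and 1.49 ± 0.0575 in WT hearts (SD, n = 3), both without overlap. Mbnl1 and Mbnl2 together came to 134 ± 3.01 FPKM in KO hearts, against 107 ± 3.87 FPKM in WT hearts. In NS-DADm hearts the same ratios were 0.561 ± 0.0183 and 2.04 ± 0.0724, against 0.526 ± 0.021 and 1.85 ± 0.185 in WT hearts, and overlapped. All 10 regulators together differed little in FPKM, and summed in KO hearts to 414 ± 12.2 FPKM, against 418 ± 6.23 FPKM in WT of KO hearts. The sum was 490 ± 16.6 FPKM in NS-DADm and 492 ± 23.8 FPKM in their WT hearts. All listed genes summed to 605736.6 to 613113.5 FPKM in KO libraries and 639747.3 to 650460.5 FPKM in WT of KO libraries. Rescaled to the same library sum, the 10 regulators together were higher in KO than in WT of KO hearts, so that direction flips with the scaling.

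**Figure D4:**
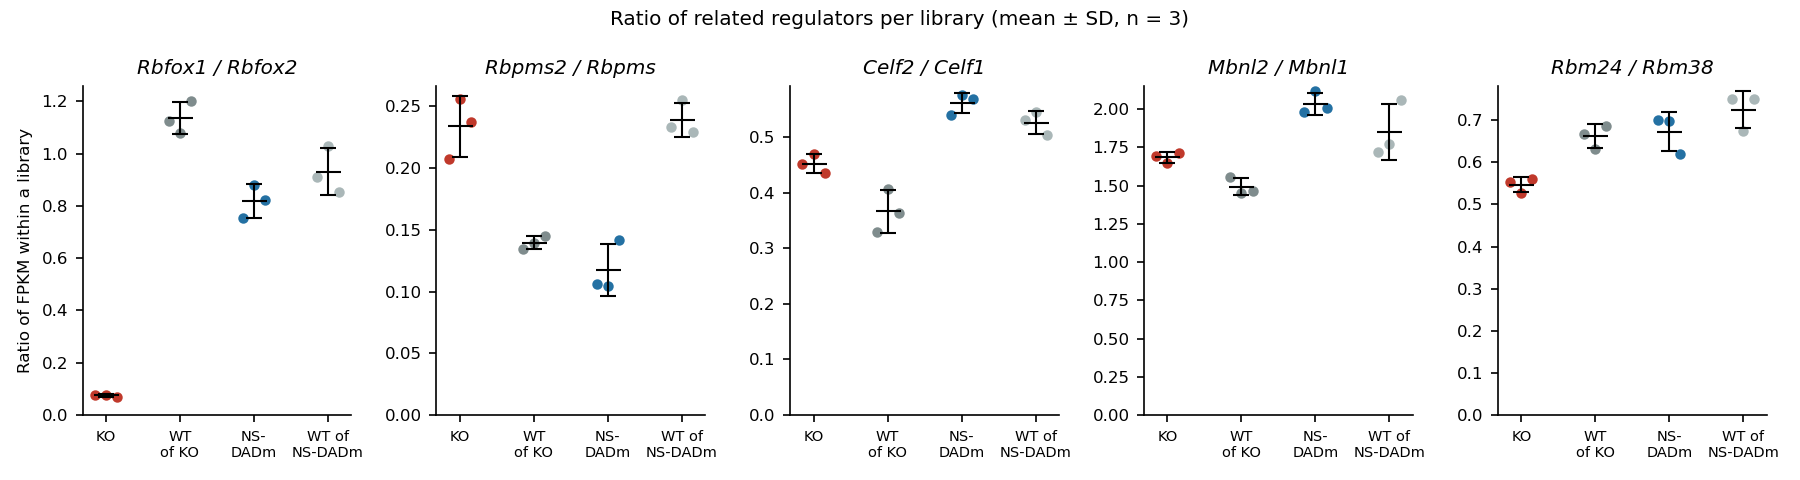
Ratio of FPKM of related regulators within each library (vertical axes, each starting at 0); points are libraries and bars the mean ± SD of 3. The Rbfox1 to Rbfox2 ratio is 0.0693 to 0.0775 in KO hearts and above 0.75 in every other library, and the Rbpms2 to Rbpms ratio is high in KO and WT of NS-DADm hearts.

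Other splicing factors moved both ways in KO hearts, and 1 of those listed was called in NS-DADm hearts. Among other tissue-restricted regulators, 5 of 14 tested rose and 3 fell in KO hearts, with a median log2 fold change of 0.03, which makes 57.1% called against 65.8% of all genes tested. Khdrbs3, an RNA-binding relative of Sam68, fell to 14.6 ± 0.41 FPKM in KO hearts, against 27.7 ± 0.872 FPKM in WT hearts (limma adjusted p = 5.34e-08). The polypyrimidine tract binding genes Ptbp1 and Ptbp3, which repress many tissue-specific exons, rose to 24.2 ± 0.462 and 11.1 ± 0.337 FPKM in KO hearts, against 17.3 ± 0.61 and 7.74 ± 0.128 FPKM in WT hearts (limma adjusted p = 8.76e-06 and 2.72e-05). Of the SR proteins, which promote exon inclusion, 5 of 12 rose and 0 fell (median log2 fold change 0.1), while 38.2% of all genes rose and 27.6% fell. Srsf9 was 12.4 ± 0.725 FPKM in KO and 6.18 ± 0.727 FPKM in WT hearts (limma adjusted p = 2.56e-06), while Tra2b and Srsf3 rose 1.18-fold and 1.22-fold. For the hnRNP proteins, often repressors of exons, 8 of 22 rose and 9 fell, 77.3% called. Hnrnpa1 fell to 60.5 ± 2.21 FPKM in KO hearts, against 84.3 ± 3.02 FPKM in WT hearts (limma adjusted p = 2.68e-06), while Hnrnpa3 rose 1.37-fold and Pcbp1 1.22-fold.

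Of 31 core spliceosome genes 6 rose and 5 fell in KO hearts, a median log2 fold change of 0.02, so that 35.5% were called against 65.8% of all genes. Sf3b4 rose 1.53-fold, while Sf3b3 and Snrnp200 fell 1.26-fold and 1.25-fold. Of 9 kinases of SR proteins 1 rose and 3 fell. Srpk3, the muscle-specific one, fell to 5.48 ± 0.673 FPKM in KO hearts, against 15.6 ± 1.26 FPKM in WT hearts (limma adjusted p = 1.51e-07). It was also the one gene of these lists called in NS-DADm hearts, at 11.3 ± 0.809 FPKM against 16.2 ± 0.15 FPKM in WT hearts (log2 fold change -0.49, limma adjusted p = 0.0103). That call was lost without WT of NS-DADm replicate 1 (adjusted p = 0.0509) or replicate 2 (0.0542). In NS-DADm hearts 0 genes of the other lists were called, among 14 tissue-restricted regulators, 12 SR proteins, 22 hnRNP proteins and 31 core spliceosome genes tested, where 2.69% of all genes were called.

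The total RNA of genes whose transcripts RBM20 is known to splice changed in both directions in KO hearts. Of 18 such genes 8 rose, 9 fell and 1 was not called, where 65.8% of all genes were called, with a median log2 fold change of -0.11. The 3 with the smallest p were Pdlim5, a Z-disc scaffold, Enah, an actin regulator, and Rtn4, a protein of the endoplasmic reticulum. Rtn4 rose to 200.2 ± 1.54 FPKM in KO hearts, against 21.1 ± 2.62 FPKM in WT hearts, and Pdlim5 to 1383 ± 15.9 FPKM, against 423 ± 3.71 FPKM. In NS-DADm hearts 0 of the 18 were called. FPKM of a whole gene does not show which exons were used, so these values bear on the amount of target RNA and not on its splicing.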

How the data were processed

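Heart RNA of 4 groups of 3 libraries was read on an MGISEQ-2000 to an average of 60 M reads with SOAPnuke 1.5.2 as read filter, per the labels' protocols. RSEM 1.2.12, HISAT2 2.0.4, DESeq2 1.4.5, Bowtie2 2.2.5 and the build GRCm38.p6 appear in the submitters' processing notes, with no role or order. The tool behind the FPKM values and any use of strand are not given in the sources used here. As stated in the file headers, the authors deposited FPKM per gene and library in 1 table per experiment. For the NS-DADm experiment, 1654 to 2212 values per library were not listed and were taken as 0. The signed fold changes in the tables, handled as a score, and their q-values are the authors' deposited calls and are quoted as such. A further 3 per-sample columns matched no label and were not used. Symbols turned into dates or numbers and repeated ones were left out, which kept 17043 and 17833 genes.

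Limma 3.58.1 in R 4.3.3, with trend and robust variances, took log2(FPKM + 1) as input and kept a gene when 3 or more libraries of a comparison reached 1 FPKM, with Benjamini-Hochberg adjustment over all genes tested and calls under 0.05. It was tested on simulated data. Each mutant was compared with its own WT, and the difference of the effects over 12 libraries. A fold is the ratio of the mean FPKM of the groups. Depth was estimated from the steps of low FPKM values, as the depth in a set range that put most values near whole fragments. At that depth 63.4% to 77.7% of them lay within 0.15 of a whole number. The 30% expected by chance holds for a fixed depth and not for the best of many, so these shares do not test the estimate. How it relates to the 60 M reads of the protocol was not examined. No counts were rebuilt and no count test was run. The 10 genes, the other lists and the rule for named genes (the 3 smallest adjusted p-values of each list, and the 5 genes most like Rbpms2) were chosen with earlier results of these data known. Promoter windows are from RefSeq (GRCm38.p6), positions from GENCODE M21. A planned description of the proteins was not made.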

Additional observations from a re-analysis of the deposited data

Results flagged for a closer look

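The effects of KO and NS-DADm, each against its own WT, differed for 7 regulators in the test of the difference over 12 libraries (limma, adjusted p under 0.05). On the log2 scale, as the KO effect minus the NS-DADm effect, the differences were -2.599 for Rbfox1, -0.7476 for Rbm20, -0.5452 for Rbm24, 0.5162 for Rbfox2, 0.3059 for Celf2, 0.2781 for Mbnl2 and 0.2425 for Mbnl1. For Rbpms2 the difference was 1.605 and is given without a p-value, as the gene was chosen for it. Every KO library was above every WT of KO library, and every NS-DADm library below every library of its WT. The KO libraries also differ from their WT in Y-linked RNA and in atrial markers. Libraries of the NS-DADm experiment differ among themselves in atrial RNA. Macrophage markers were called higher in KO hearts (12 of 12 tested) and in NS-DADm hearts (5 of 11 tested). The part of any of these in the differences was not tested.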

How the results depend on the processing

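Among the 9 regulators other than Rbpms2, 407 of 423 values under another setting kept their side of the threshold, and no called value changed sign. In NS-DADm hearts the uncalled fold changes of Rbm20, Rbfox2, Celf1, Mbnl1 and Rbpms lay on either side of 0 by setting. In the KO comparison the exceptions were 3 settings that called Rbpms lower: median centring (-0.17), quantile normalization (-0.12, limma adjusted p = 0.0498) and leaving out KO replicate 1 (-0.14). In the difference of the effects, Celf2 lost its call under both scalings (limma adjusted p = 0.0784 and 0.0731), Mbnl1 under median centring (0.153), and Mbnl2 under both (0.183 and 0.207), without a filter (0.0513), without trend (0.0611) and without WT of KO replicate 1 or 2, KO replicate 1 or 3, WT of NS-DADm replicate 3 or NS-DADm replicate 1 (0.0529 to 0.0851). Rbm38 was called lower in KO hearts under median centring (0.00292), quantile normalization (0.00105), with a replicate block (0.0378) and without WT of KO replicate 1 (0.0198). The cause of these changes was not tested.

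The number of genes called in NS-DADm hearts, 315, was 164 without a filter, 165 with the atrial markers as a covariate and 182 without the 3 libraries high in them (the last 2 chosen after seeing the data). It ranged from 84 (without WT of NS-DADm replicate 2) to 248 when 1 library was left out, with 99 without WT replicate 1 and 148 without NS-DADm replicate 1. The fit with 3 libraries assumes that the lone NS-DADm library varies like the WT. The KO count of 7775 ranged from 6814 to 7352 and that of the difference, 5348, from 4639 to 5311. With the replicate number as a block, the NS-DADm count was 496, the KO count 7724 and that of the difference 5501. The labels do not say that the numbers pair samples. Deviations of equal numbers correlated at -0.0559, -0.0247 and 0.00204 in the KO experiment and at 0.00662, 0.376 and 0.435 in the other. Not every sample was closest to its own number, and these values cannot decide whether samples were paired. Rescaling each library to a sum of 1000000 puts the 10 regulators in WT hearts at 646.8 in place of 417.9 FPKM in the KO experiment and at 898.2 in place of 491.6 FPKM in the other, by construction. Depth, estimated at 8.5 to 12.9 M fragments, limits the low genes most. The relatives under 1 FPKM were left out of the main tests by the filter of 1 FPKM in 3 libraries.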
